A study of Homo sapiens with 40 samples.

Results

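BCL3 was followed on 40 two-colour arrays of human lymphoma cells. It was 1 of 4604 genes and was read by 3 of the 15246 probes, those whose single gene symbol was BCL3. It was chosen by its own response in these arrays, higher after IL-6 and IL-10 and lower after JAK inhibitor I, so its values in those 3 experiments are given as a description with no test. Tests were made in the other 3 experiments, which the choice did not use.

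The cells were OCI-Ly3 and OCI-Ly10, established cell lines from diffuse large B cell lymphoma of the activated B cell-like subgroup. On every array the Cy5 channel held RNA of the treated cells and the Cy3 channel RNA of control cells of the same line. OCI-Ly10 was given IL-6 at 50 ng/ml for 0.5 to 24 h (8 arrays), OCI-Ly3 was given IL-10 at 50 ng/ml for 1 to 96 h (10 arrays), and OCI-Ly10 was given JAK inhibitor I at 5 uM for 3 or 6 h (4 arrays). OCI-Ly10 was also electroporated with a STAT3 siRNA SMARTpool at 4 uM and sampled at 8, 24 and 48 h, against cells electroporated with no siRNA (5 arrays). An IkB super-repressor under doxycycline control (iIkBsr) was switched on with 20 ng/ml doxycycline for 1 to 6 h in OCI-Ly3 (9 arrays) and for 1.5 to 24 h in OCI-Ly10 (4 arrays), against the same transfected line as control. The controls carried no vehicle named by the labels and no non-targeting siRNA, and the super-repressor controls carried no doxycycline by the labels. Values are log2 ratios of treated over control cells, with each array centred on its median, so 0 means no difference, and they hold no level of a gene within a cell line, so B cell markers could not be checked. Each ratio compares bulk RNA, in which fewer cells of a kind and less RNA per cell cannot be told apart.

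BCL3 is an atypical member of the IkB family. Classical IkB proteins such as NFKBIA hold NF-kB dimers in the cytoplasm, whereas BCL3 works in the nucleus, where it binds homodimers of p50 or p52, the products of NFKB1 and NFKB2, and can raise or lower transcription at their sites. The gene was found at a recurrent translocation of chronic lymphocytic leukaemia, and in human myeloma cells IL-6 has been described to raise it through STAT3. Constant NF-kB signalling is a known feature of activated B cell-like lymphoma, and IL-6 and IL-10 both signal through JAK kinases to STAT3.

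The gene lies on chromosome 19 of build GRCh38.p14, from position 44747705 to 44760044 on the plus strand. Its promoter in RefSeq is shown because the STAT3 and NF-kB pathways were both perturbed here, and the window at chr19:44748458-44748757 runs from 250 bases before to 50 bases after the transcript start that the RefSeq table uses, which lies inside the outer bounds of the gene. Capitals mark the single match to the NF-kB consensus, which reads on both strands.
BCL3: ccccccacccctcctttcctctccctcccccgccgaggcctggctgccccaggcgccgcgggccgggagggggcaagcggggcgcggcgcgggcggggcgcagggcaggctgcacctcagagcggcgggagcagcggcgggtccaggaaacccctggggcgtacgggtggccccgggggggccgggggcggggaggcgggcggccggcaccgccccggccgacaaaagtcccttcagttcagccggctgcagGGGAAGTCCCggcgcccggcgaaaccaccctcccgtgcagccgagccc
The window held no match to TTCNNNGAA, the core sequence bound by STAT dimers, and its GC content was 80.0%. Of 35116 RefSeq promoter windows of the same length, on both strands, 11.27% held the NF-kB consensus and 7.66% held TTCNNNGAA. For comparison, the next lines give the windows around the consensus in NFKBIA, which serves below as the check of the super-repressor, in NFKB1, the gene of the BCL3 partner p50, and in ELF3, the gene with the closest ratios to BCL3, again with the match in capitals. They lie before the transcript starts, at chr14:35404811-35404840 on the minus strand for NFKBIA, chr4:102501300-102501329 on the plus strand for NFKB1 and chr1:202010489-202010518 on the plus strand for ELF3, in the same build.
NFKBIA: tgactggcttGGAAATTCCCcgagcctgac
NFKB1: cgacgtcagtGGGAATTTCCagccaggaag
ELF3: ctaaaggccaGGAAATCCCCtccatccaat
A match describes the letters of the window and is not a measured binding site.

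The 3 BCL3 probes rose and dropped together. Over the 40 arrays their pairwise Pearson correlations were 0.97, 0.97 and 0.98, given as a description since the probes share every array. The gap between the highest and the lowest probe had a median of 0.209 log2 units over the arrays. Probe 1 was the lowest of the 3 on 23 of 40 arrays. The widest gap, 0.947, was on the second 6 h array of JAK inhibitor I, where the probes read -1.17, -0.34 and -0.23. Elsewhere in the text BCL3 means the mean of its 3 probes.

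In OCI-Ly10 cells given IL-6, BCL3 was above the control on all 8 arrays. Its ratio was 0.67 at 0.5 h on 1 array. At 1 h the arrays gave 1.45 and 0.93, the highest values of the course. They gave 0.745 and 0.746 at 3 h, 0.82 and 0.61 at 6 h, and 0.51 at 24 h on 1 array. The high point at 1 h rests on 2 arrays with an SD of 0.368, and the arrays of 3, 6 and 24 h lay below both of them. Over 1 to 24 h the mean was 0.79 ± 0.074 (SE, 7 arrays), or 1.73-fold. That mean was the 4th highest of 3301 genes. Of those 3301 genes 4.54% were called at an adjusted p under 0.05 by limma with Benjamini-Hochberg adjustment, and the median of all genes was -0.009. Same-numbered arrays deviated together in this experiment, but each number was also 1 run of array identifiers, so pairing and run cannot be told apart. With the number as a replicate block 314 genes were called in place of 150, with the BCL3 mean still at 0.79. Probes 1 to 3 gave means of 0.76, 0.82 and 0.79, and the 2 runs of consecutive array identifiers 0.761 (3 arrays) and 0.84 (5 arrays, 0.5 h included).

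In OCI-Ly3 cells given IL-10, BCL3 was above the control on all 10 arrays and stayed high to the last time. The 2 arrays of 1 h gave 1.66 and 1.22, those of 3 h 1.68 and 2.01, and those of 6 h 1.83 and 1.62. At 24 h they gave 1.32 and 1.60, and the single arrays of 48 h and 96 h gave 1.63 and 1.75. No time stood apart, since the means of 1.44 to 1.84 differed by about as much as the arrays of 1 time, whose SDs ran from 0.145 to 0.31. Over 1 to 96 h the mean was 1.64 ± 0.063 (SE, 10 arrays), or 3.12-fold, the 9th highest of 4383 genes. Probes 1 to 3 gave 1.55, 1.65 and 1.72, and the 3 runs of arrays 1.61, 1.69 and 1.62. Of the 4383 genes 35.3% were called, the highest share among the 6 experiments, and their median was -0.019. The lowest IL-10 array for BCL3, at 1.22, lay above 7 of the 8 IL-6 arrays, but the cytokines were given to different lines and over different times, so no comparison of their size was made.

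JAK inhibitor I, a small molecule that blocks the JAK kinases, was the agent after which BCL3 was lowest. At 3 h the arrays gave -0.998 and -0.92, and at 6 h -0.54 and -0.58. The arrays of a time lay close together, with SDs of 0.056 at 3 h and 0.031 at 6 h, and both 6 h arrays were nearer to 0 than both 3 h arrays. Over the 4 arrays the mean was -0.76 ± 0.094 (SE), or 0.592 of the control, the 5th lowest of 4480 genes, of which 3.26% were called. The probes differed in how deep they read it, with means of -0.90, -0.70 and -0.67 for probes 1 to 3. Its 2 runs, each with 1 array a time, gave -0.766 and -0.749. In this experiment the means of the other IkB family members lay between -0.04 and 0.12, but BCL3 was chosen on its values here and they were not.

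**Figure D1:**
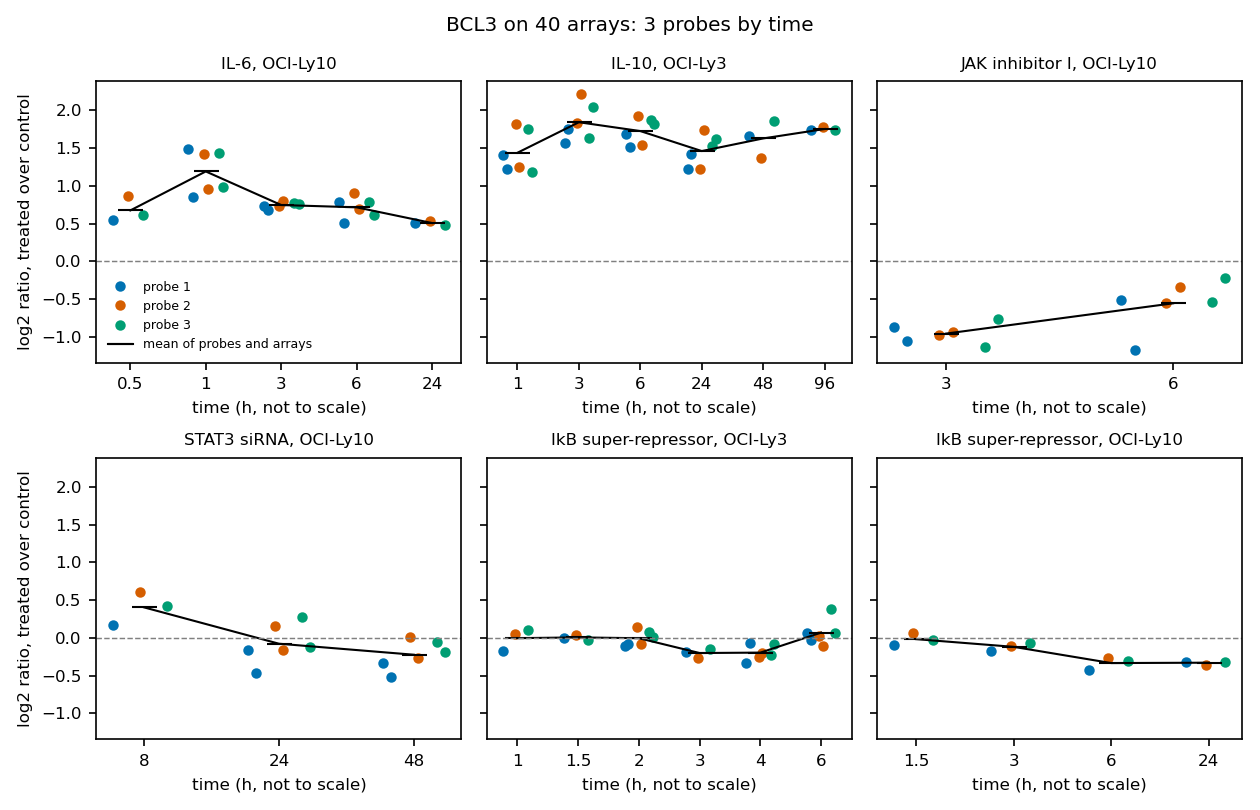
Log2 ratio of BCL3, treated over control, against time in hours in the 6 experiments; each point is 1 probe on 1 array and the black line joins the means of probes and arrays at each time. All points lie above 0 after IL-6 and IL-10 and below 0 after JAK inhibitor I. They straddle 0 with the STAT3 siRNA and with the super-repressor in OCI-Ly3. With the super-repressor in OCI-Ly10 they lie around 0 at 1.5 h and below 0 from 3 h on.

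The STAT3 siRNA lowered its target but was not accompanied by a called change in BCL3. STAT3, the transcription factor downstream of both cytokines, had ratios of -1.46 and -2.26 at 24 h and -1.74 and -0.89 at 48 h, a mean of -1.59 ± 0.167 over the 4 arrays (SE; adjusted p = 6.4e-05, limma), and was at -1.99 on the single 8 h array. Fitted on the siRNA arrays alone, its adjusted p was 0.241. BCL3 had 0.09 and -0.247 at 24 h and -0.124 and -0.325 at 48 h. It was below 0 on 3 of those 4 arrays, and at 8 h it was above 0, at 0.40. The mean over 24 and 48 h was -0.15 ± 0.094 (SE), with a 95% interval of -0.35 to 0.045 (adjusted p = 0.371, limma), in a comparison that called 3.31% of 4346 genes. The 2 arrays numbered 2 come from 1 run of consecutive array identifiers and gave a mean of -0.286 for BCL3, against 0.123 over the 3 arrays of the other run, which include 8 h; the part of the run in these values was not tested. Probe 1 alone had a mean of -0.37 (adjusted p = 0.0596, limma), while probes 2 and 3 had -0.065 and -0.019.

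The IkB super-repressor, a form of the classical inhibitor that resists degradation and so holds NF-kB in the cytoplasm, gave no called change in BCL3 in either line. In OCI-Ly3, BCL3 was at -0.005 at 1 h and 0.005 at 1.5 h on 1 array each. It had 0.039 and -0.05 at 2 h, -0.20 at 3 h on 1 array, -0.27 and -0.12 at 4 h, and 0.16 and -0.025 at 6 h. The 3 and 4 h arrays were the lowest, and the 6 h arrays were back around 0. Over 2 to 6 h the mean was -0.084 ± 0.074 (SE, 7 arrays, 5 of them below 0; 95% interval -0.24 to 0.072; adjusted p = 0.449, limma), where 14.0% of 4390 genes were called. The 2 arrays of 2 h did not correlate across probes (r = -0.016, against 0.144 to 0.676 for the other replicate pairs of the series), and without them the mean was -0.11. Probes 1 to 3 averaged -0.115, -0.126 and -0.01, and the 2 runs -0.019 and -0.079 over all times.

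In OCI-Ly10 with the super-repressor, BCL3 had a ratio of -0.018 at 1.5 h and -0.12 at 3 h, and then -0.34 and -0.33 on the arrays of 6 h and 24 h, with 1 array a time. The 3 later arrays were all below 0 and averaged -0.26 ± 0.108 (SE; 95% interval -0.49 to -0.035). The unadjusted p was 0.0261 and the adjusted p 0.612 (limma), so the difference did not pass. With no replicates here, the SE and interval rest on the spread between replicate arrays of the other experiments. A trended and robust variance prior was also tried, with the trend on each gene's mean absolute log ratio over the arrays and not on its intensity. With it the SE was 0.244. The probes lay close together, at -0.31, -0.245 and -0.23, and all 4 arrays belong to 1 run. Few genes did here, 0.532% of 4515. Over the times both lines shared, 1.5, 3 and 6 h, OCI-Ly3 minus OCI-Ly10 came to 0.12 ± 0.147 (SE; 95% interval -0.19 to 0.42; adjusted p = 0.994, limma), and 0% of 4384 genes were called, with 108 at an unadjusted p under 0.05. That difference turned to -0.029 without the 6 h array of OCI-Ly10.

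Set in order, the means of BCL3 ran from IL-10 (1.64) and IL-6 (0.79) through the super-repressor in OCI-Ly3 (-0.084), the STAT3 siRNA (-0.15) and the super-repressor in OCI-Ly10 (-0.26) to JAK inhibitor I (-0.76). This order is a description and compares no sizes of effect, since lines and time windows differ. BCL3 was also chosen on its values after IL-10, IL-6 and the inhibitor. The intervals of the 3 middle means overlap one another. The labels do not say whether arrays of 1 time came from separate cultures, so the errors measure the spread between arrays, which may be technical.

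The IkB family was listed with 5 other members, of which NFKBIZ had no probe and NFKBIB was tested in 4 of the 6 experiments. NFKBIA, the classical inhibitor and itself an NF-kB target, fell with the super-repressor, and BCL3 did not pass there. In OCI-Ly3 NFKBIA was at -1.61 ± 0.101 over 2 to 6 h (SE; adjusted p = 1.21e-08, limma), and its arrays ran from -0.71 and -1.41 at 2 h to -2.07 and -2.28 at 6 h. In OCI-Ly10 it was at -1.03 ± 0.147 over 3 to 24 h (adjusted p = 0.00269, limma), a call lost with a trended and robust variance prior (adjusted p = 0.092). A probe for NFKBIA could also read a transgene made from it, which would raise its ratio. NFKBIE, the epsilon inhibitor, fell by 0.73 in OCI-Ly3 (adjusted p = 3.44e-05) and was at -0.66 in OCI-Ly10 (adjusted p = 0.0177), and NFKBID, another nuclear member, fell by 0.37 in OCI-Ly3 (adjusted p = 0.00666), a call lost with the run as a block (0.0629). The OCI-Ly10 call of NFKBIE was lost without any 1 of its arrays of 3, 6 or 24 h (adjusted p 0.0618 to 0.382) and once the run was a block (0.2). The family had 3 of 3 tested members lower in OCI-Ly3, with a median of -0.73, where 14.0% of all genes were called and 214 of 4390 were lower. In OCI-Ly10 it had 2 of 4 lower, with a median of -0.46, where 0.532% of all genes were called.

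After IL-10, 2 of the 4 tested family members fell and 1 rose, where 35.3% of all genes were called (706 higher and 842 lower). NFKBID fell by 0.47 and NFKBIE by 0.56 (adjusted p = 3.14e-05 and 8.02e-06, limma), while NFKBIA rose by 0.36 (adjusted p = 0.00306) and was above 0 on 9 of 10 arrays. NFKBIB was at 0.055, and the median of the 4 was -0.21. After IL-6, NFKBID was at -0.30 (adjusted p = 0.0373), NFKBIE at -0.18 and NFKBIA at 0.001. The NFKBID call after IL-6 was lost without either 3 h array, the first 1 h array or the second 6 h array (adjusted p 0.0524 to 0.121), and with the run of array identifiers as a block (adjusted p = 0.229). After JAK inhibitor I and after the siRNA 0 of 4 members passed, where 3.26% and 3.31% of all genes were called. The family medians there were -0.004 and 0.14.

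The NF-kB subunits include the partners of BCL3, NFKB1 (p105, the precursor of p50) and NFKB2 (p100, the precursor of p52), besides RELA, RELB and REL, which carry activation domains. All 5 were tested in each experiment, and 3 were called after IL-10, against 35.3% of all genes, and 2 with the super-repressor in OCI-Ly3, against 14.0%. After IL-10 RELB rose by 0.38 on 10 of 10 arrays (adjusted p = 9.66e-05, limma), whereas NFKB1 was at -0.40 (adjusted p = 0.00619) and REL fell by 0.34 (adjusted p = 0.00147). NFKB1 lost its call without the 96 h array (-0.27, adjusted p = 0.0718). NFKB2 and RELA were at 0.068 and 0.105 and did not pass. With the super-repressor in OCI-Ly3, NFKB2 fell by 0.29 and RELB by 0.38 (adjusted p = 0.0024 and 0.00295, limma), NFKB1 was at -0.36 and REL at -0.081, and RELA was at 0.17. No subunit of the 5 passed after IL-6, JAK inhibitor I, the siRNA or the super-repressor in OCI-Ly10, where their medians were 0.038, 0.02, 0.18 and -0.13. The shares of all genes called there were 4.54%, 3.26%, 3.31% and 0.532%. In the IL-6 experiment NFKB1, at -0.39 (adjusted p = 0.0719), was the furthest from 0, and with the replicate block it passed (adjusted p = 0.0399, limma).

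**Figure D2:**
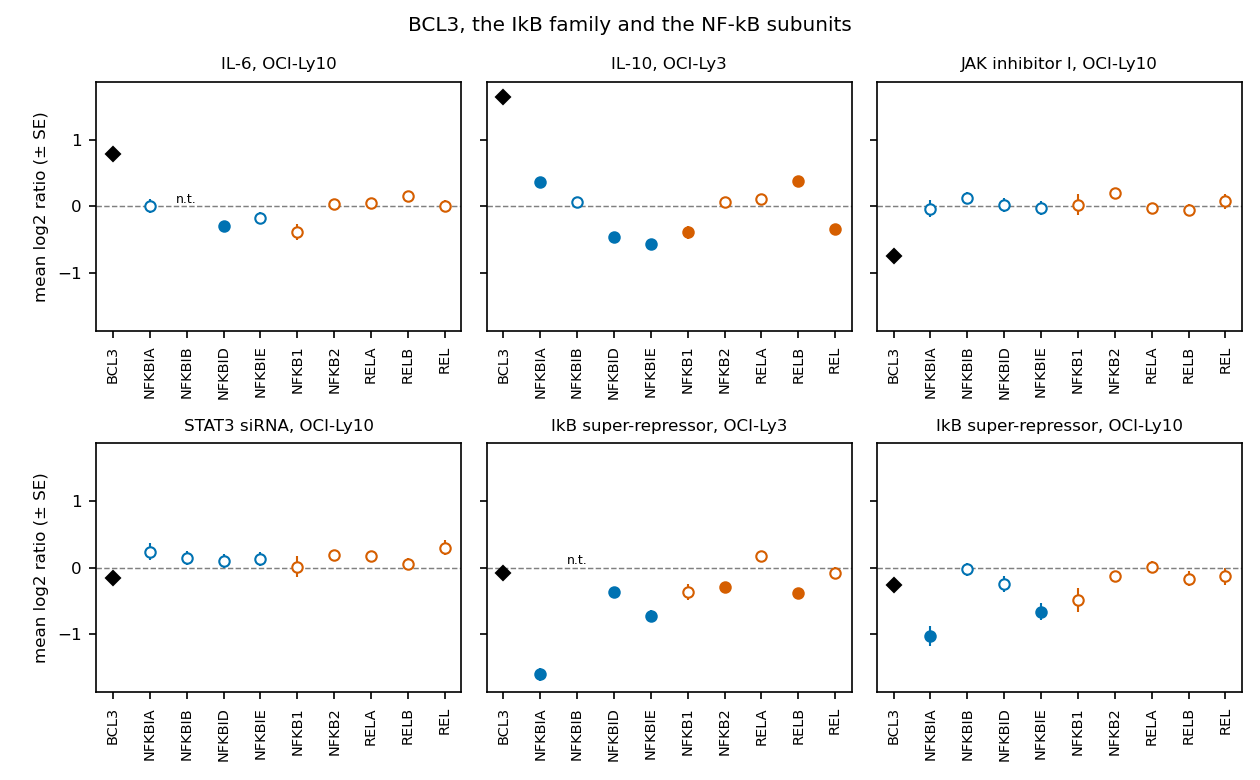
Mean log2 ratio with SE over the time window of each experiment for BCL3 (black diamond), the other IkB family members (blue) and the NF-kB subunits (orange); filled circles passed an adjusted p under 0.05 and open circles did not, BCL3 carries no test mark, and n.t. stands for not tested. BCL3 stands highest in both cytokine panels and lowest in the inhibitor panel, which its choice on those experiments favours. NFKBIA and NFKBIE are the lowest with the super-repressor.

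Of the receptors, JAKs and STATs that carry the cytokine signal, 9 were tested after IL-10, of which 3 rose and 3 fell, where 35.3% of all genes were called. One of the 3 that fell, JAK2 at -0.215, lost its call once the run was a block (adjusted p = 0.103), with scaled arrays (0.073), on the IL-10 arrays alone (0.0609), and without the first array of 1 or 24 h or the second of 3 or 6 h (0.0569 to 0.0809). STAT3 itself rose by 1.37 (adjusted p = 1.45e-08, limma). On the 1 h arrays STAT3 was at 0.31 and 0.018, where BCL3 already had 1.66 and 1.22. IL10RA, the ligand-binding chain of the IL-10 receptor, fell by 0.67, and STAT5B rose by 0.32 (adjusted p = 5.02e-09 and 0.00117). With the replicate block STAT5A, at 0.16, passed too (adjusted p = 0.0149). After IL-6 STAT3 was at 0.075 and did not pass (adjusted p = 0.785). IL10RA, at -0.24, was the 1 member of 7 called there, against 4.54% of all genes. After JAK inhibitor I IL10RA was at 0.36 and STAT3 at -0.69 (adjusted p = 0.0117 and 0.0264, limma), called in opposite directions. Those last 3 calls rest on few arrays. IL10RA after IL-6 lost its call without the first array of 1, 3 or 6 h (adjusted p 0.0528 to 0.0713) and with the run as a block (0.196). After the inhibitor IL10RA lost it without the second array of 3 or 6 h (0.0793 to 0.145). STAT3 after the inhibitor lost it without either 3 h array or the second 6 h array (0.103 to 0.303) and with the run as a block (0.079). With the siRNA STAT3 was the 1 of 9 members called, against 3.31% of all genes. With the super-repressor in OCI-Ly3, where 14.0% were called, IL10RB was at 0.26, STAT5A at -0.26 and IL6R at -0.19 (adjusted p = 0.00723, 0.0425 and 0.0251). With the run as a block none of these 3 stayed called (adjusted p = 0.0681, 0.176 and 0.141). STAT5A and IL6R also lost their calls without single arrays of 2, 4 or 6 h (adjusted p 0.077 to 0.131 and 0.0511 to 0.0955). In OCI-Ly10 the super-repressor gave 0 of 9, where 0.532% of all genes were called.

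The list of STAT3 feedback and target genes had 10 tested members. After IL-10, 8 of 10 rose and 0 fell, where 706 of 4383 genes were called higher (35.3% called in either direction), and their median was 0.67 against -0.019 over all genes. One of those 8, SOCS3 at 0.28, lost its call once the run was a block (adjusted p = 0.0655) and was at 0.026 with the median of its probes (adjusted p = 0.799). SOCS2, a suppressor of cytokine signalling, rose by 1.91, PTPN1, a tyrosine phosphatase that acts on JAKs, by 1.89, and JUNB, an AP-1 subunit, by 0.94 (adjusted p = 2.66e-12, 1.47e-13 and 4.17e-12, limma). With the replicate block PIM1, a kinase induced by STAT factors, was also called, at -0.24 (adjusted p = 0.0133), against the direction of the list. After IL-6, 4 of 10 rose and 0 fell, where 4.54% of all genes were called, and the median of the 10 was 0.24. SOCS3, the main feedback inhibitor of IL-6 signalling, rose by 0.77 and PTPN1 by 0.52 (adjusted p = 0.00026 and 0.00115), and CISH was at 0.39 (adjusted p = 0.0274). SOCS3 was at 2.62 at 0.5 h and at 1.60 and 1.31 at 1 h, then between 0.45 and 0.60 to 24 h, so that it was highest at the first time where BCL3 was highest at 1 h. CISH lost its call without the second array of 1, 3 or 6 h (adjusted p 0.0894 to 0.116) and with the run as a block (0.137), and PTPN1 and JUNB (0.36) with a trended and robust variance prior (0.0532 and 0.0659).

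After JAK inhibitor I 1 of the 10 STAT3 genes was called, MCL1, a survival protein of the BCL2 family, at -0.28 (adjusted p = 0.0332, limma). With the siRNA 1 was called, SOCS2 at -0.65 (adjusted p = 0.00854). The medians of the 10 were -0.13 and -0.053. MCL1 lost its call without either 3 h array or the second 6 h array (adjusted p 0.126 to 0.292) and with the run as a block (0.115), and SOCS2 without the first 24 h or the second 48 h array (0.0641 to 0.0695) and once the run was a block (0.0557). The means of the 10 after the inhibitor ran from -0.28 to 0.22, with 3.26% of all genes called there and 3.31% with the siRNA. With the super-repressor in OCI-Ly3 SOCS2 fell by 0.72 (adjusted p = 0.000145) and JUNB was at -0.18 (adjusted p = 0.0254), a call lost without 1 array of 2 or 4 h or either of 6 h (0.0522 to 0.0927), with the run as a block (0.154), on the OCI-Ly3 super-repressor arrays alone (0.0935) and with the trended and robust prior (0.273). In OCI-Ly10 0 of 10 passed, where 0.532% of all genes were called.

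Of the proteins that bind, modify or stabilise BCL3, 8 were tested after IL-10, and 1 was called higher and 2 lower, a share near the 35.3% of all genes called there. BARD1, a partner of BRCA1 that BCL3 binds, fell by 0.25, and HDAC1, a histone deacetylase described with BCL3 in repression, was 0.22 higher (adjusted p = 0.00204 and 0.00408, limma), the second call being lost on the IL-10 arrays alone (0.0665). COPS5, another described binding partner, was at -0.20 (adjusted p = 0.0372), a call lost without any 1 of 6 arrays, the second of 1, 3, 6 or 24 h and those of 48 and 96 h (0.0699 to 0.102), with the run as a block (0.0994), with scaled arrays (0.0849), with the median of the probes (0.0595) and on the IL-10 arrays alone (0.121). With the super-repressor in OCI-Ly3 HDAC1 was at 0.23 (adjusted p = 0.0242), 1 of 7 tested, where 14.0% of all genes were called. It lost its call with the run as a block (0.109) and without the second 2 h array or any 1 array of 4 or 6 h (0.0502 to 0.0726). After IL-6, JAK inhibitor I, the siRNA and the super-repressor in OCI-Ly10 0 members passed, of 6, 8, 8 and 8 tested. The shares of all genes called there were 4.54%, 3.26%, 3.31% and 0.532%.

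Among 6 genes described in other cells as regulated with BCL3, TNF and IL10 are given by array. TNF is the inflammatory cytokine whose production BCL3 with p50 is known to restrain in mouse macrophages. After IL-10 TNF fell by 1.54 (adjusted p = 5.56e-14, limma). The arrays of 1 and 3 h overlapped, and TNF was lower at 6 h and lower again at 24 h. Its arrays gave -0.42 and -0.59 at 1 h, -0.39 and -0.77 at 3 h, -1.34 and -1.59 at 6 h, -2.30 and -2.12 at 24 h, -2.05 at 48 h and -2.45 at 96 h. BCL3 had 1.66 and 1.22 at 1 h and 1.75 at 96 h, and TNF was lowest from 24 h on. Whether BCL3 had a part in the fall of TNF was not tested. After IL-6 TNF fell by 0.41 (adjusted p = 0.000722), with -0.12 and -0.018 at 1 h and -0.57, -0.70 and -0.61 on the arrays of 6 and 24 h, a call lost with the trended and robust prior (0.125). TNF also fell by 0.82 with the super-repressor in OCI-Ly3 (adjusted p = 1.16e-07), where BCL3 did not pass. After JAK inhibitor I and the siRNA TNF was at -0.17 and 0.25 and did not pass (adjusted p = 0.272 and 0.0775).

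The IL10 gene, which BCL3 is known to support in mouse macrophages, rose by 0.78 in OCI-Ly3 given IL-10 (adjusted p = 7.49e-06, limma), on 10 of 10 arrays that ran from 0.115 at 24 h to 1.63 at 96 h. In OCI-Ly10 given IL-6 it was at 1.43 at 0.5 h and 1.22 and 1.23 at 1 h, and between -1.06 and 0.19 from 3 h on, so that its mean over 1 to 24 h, 0.16, did not pass (adjusted p = 0.46). After IL-10 the B cell survival gene BCL2 fell by 0.58 and the cyclin gene CCND1 by 0.53 (adjusted p = 1.26e-07 and 7.21e-06). IL6 rose by 0.48 (adjusted p = 0.000916, limma). In all 2 of 6 members rose and 3 fell after IL-10, where 35.3% of all genes were called. The list went both ways, and whether BCL3 had a part in any of these changes was not tested. With the super-repressor in OCI-Ly3, where 14.0% were called, 3 of 6 fell, with IL6 at -0.53 and CCND1 at -0.32 beside TNF (adjusted p = 0.00675 and 0.014). With the run as a block IL6 and CCND1 did not pass (0.0585 and 0.116), and CCND1 also without the second 4 h or the first 6 h array (0.0602 and 0.0685). After IL-6 TNF was the 1 of 5 called, against 4.54% of all genes. The other experiments gave 0 of 6, where 3.26% (inhibitor), 3.31% (siRNA) and 0.532% (super-repressor in OCI-Ly10) of all genes were called.

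**Figure D3:**
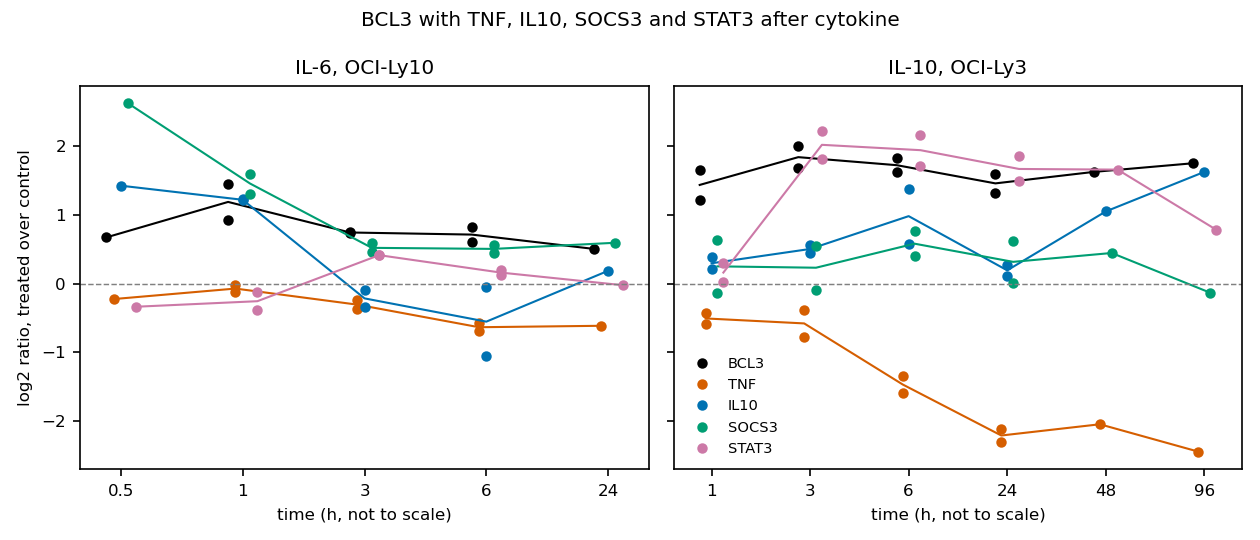
Log2 ratio, treated over control, of BCL3, TNF, IL10, SOCS3 and STAT3 against time in hours after IL-6 in OCI-Ly10 and IL-10 in OCI-Ly3; each point is 1 array and the lines join the means at each time. BCL3 is already high on the first arrays of both courses. TNF reaches its lowest values, down to -2.45, from 24 h after IL-10, and a link between them was not tested.

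The gene with the closest ratios to BCL3 over the 40 arrays was ELF3, an epithelial-type ETS transcription factor. Likeness was measured as the mean absolute difference in log2 ratio, over 3637 genes with a value on at least 36 arrays, and is a description, since all genes share the arrays and the IL-10 arrays weigh heavily. ELF3 differed from BCL3 by 0.264 on average (Pearson r = 0.95, Spearman rho = 0.88), against a median of 0.7505 over the genes compared. A gene at 0 on every array would differ from BCL3 by 0.7176. It followed BCL3 in the 1 h high point after IL-6, at 1.13 and 1.07, and in the low after 3 h of JAK inhibitor I, at -1.19 and -1.02. It lay below BCL3 later after IL-6, with 0.41, 0.27 and 0.19 at 3, 6 and 24 h against 0.746, 0.715 and 0.507. At 6 h of the inhibitor it was at -0.24 and BCL3 at -0.56. With the super-repressor in OCI-Ly3 its mean was -0.37 and that of BCL3 -0.084.

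After ELF3 came AHR, the aryl hydrocarbon receptor (difference 0.354), SOD2, the mitochondrial superoxide dismutase (0.387), JUN (0.4) and GLRX, a glutaredoxin (0.4). IL2RB, a receptor chain for IL-2 and IL-15, PTPN1 and JUNB followed at 0.41, 0.411 and 0.425. Their Pearson correlations with BCL3 ran from 0.80 for SOD2 to 0.85 for JUNB, and their Spearman values from 0.73 to 0.87. All 8 had means above 0 after both cytokines and below 0 after JAK inhibitor I, as BCL3 did, which their choice on these same arrays favours. Apart from ELF3 they had -0.058 to -0.285 after the inhibitor, against -0.76 for BCL3. The choice of genes depended on the IL-10 arrays. Of the 8, 2 (ELF3 and IL2RB) were also among the 8 nearest without those arrays, where ELF3 kept r = 0.88, and 4 were among the 8 with the highest Pearson r.

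**Figure D4:**
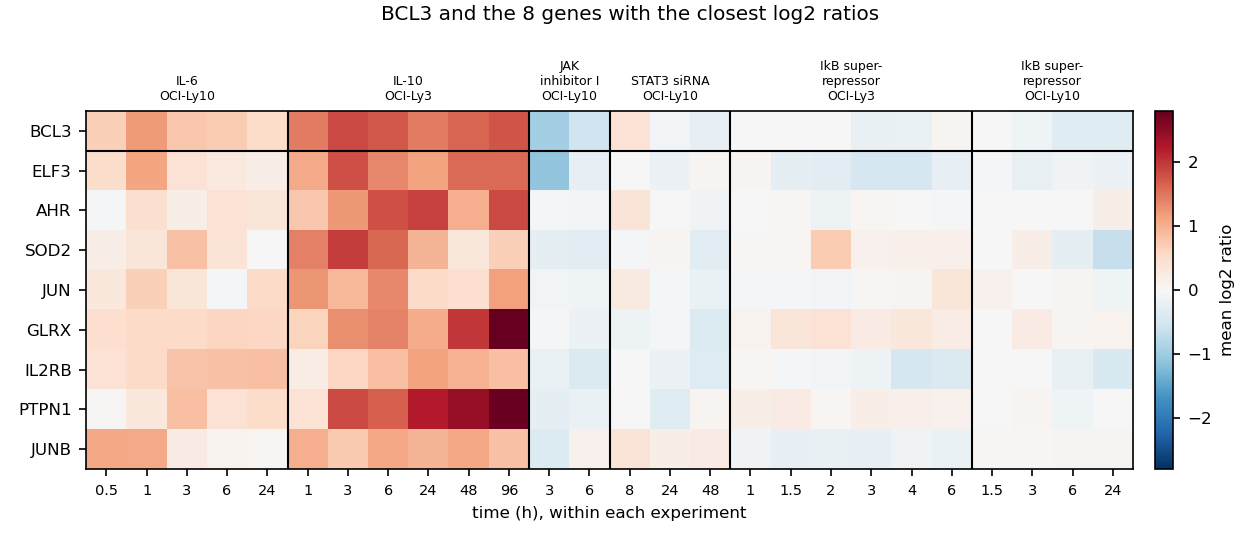
Mean log2 ratio of BCL3 (top row) and of the 8 genes with the smallest mean absolute difference from it, at each time point in hours of the 6 experiments; red is above and blue below the control. ELF3 shares the high values after IL-10 and at 1 h of IL-6 and the low value at 3 h of JAK inhibitor I. It is paler than BCL3 from 3 h of IL-6 on, and GLRX and PTPN1 are redder than BCL3 late after IL-10.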

How the data were processed

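RNA of treated and control cells was compared on 40 two-colour arrays. The deposited value table holds 1 log ratio per probe and array, Cy5 over Cy3 per the labels, read here as log2. The base, background correction and normalization are not stated in the labels. Of the 15246 probes 10169 had 1 gene symbol, 4 had several and 5073 had none listed, and 12.6% of cells were blank. Arrays had 8862 to 14947 probes with a value and medians of -0.031 to 0.011 before centring. The number of arrays limits the precision.

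Arrays were centred on their medians and probes averaged per gene after symbols were updated through the Entrez ID (10128 matched). limma 3.58.1 in R 4.3.3 fitted 1 mean per experiment and time over all 40 arrays. The means of a window of times were tested against 0 with eBayes. Genes entered with a value on at least 75% of a window's arrays and at each time, and p-values were adjusted over them by Benjamini-Hochberg (threshold 0.05). The fit was tried on simulated data with independent noise of equal SD for all genes. That simulation held no runs or pairs, so it cannot show how they affect the calls. Arrays fell into 12 runs of consecutive identifiers (gaps above 50), tried as a block. Same-numbered arrays of IL-6 and IL-10 deviated together in every pair (correlations from 0.193 and from 0.376). At times with replicate arrays each number was also 1 run, so pairing and run cannot be told apart. The main fit held neither as a term. Named genes were all measured members of the IkB and NF-kB lists, up to 3 called members of each other list per experiment, TNF, IL10 and the 8 genes nearest to BCL3. BCL3 and the lists were chosen with earlier results of these data known.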

Additional observations from a re-analysis of the deposited data

How the results depend on the processing

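BCL3 kept its direction after IL-6, IL-10 and JAK inhibitor I under every alternative run, and in the other comparisons no alternative brought it past the threshold. Scaling the arrays to equal spread moved its mean to 1.33 after IL-10 and to -0.89 after JAK inhibitor I. After the inhibitor it was -0.70 with the median of the probes and -0.90, -0.70 and -0.67 with probe 1, 2 or 3 alone. With all time points the siRNA mean turned to 0.033 (adjusted p = 0.836, limma). Over the other siRNA alternatives adjusted p ran from 0.0596 to 0.945. Leaving out 1 array at a time gave 0.73 to 0.88 after IL-6, 1.60 to 1.68 after IL-10, -0.78 to -0.74 after the inhibitor, -0.24 to -0.067 for the siRNA, -0.107 to -0.045 for the super-repressor in OCI-Ly3, -0.33 to -0.22 in OCI-Ly10, and -0.029 to 0.214 for OCI-Ly3 minus OCI-Ly10. The trended and robust prior left the means of BCL3 in place but widened its SE in every experiment. It was 0.167 after IL-6, 0.141 after IL-10, 0.211 after the inhibitor and with the siRNA, and 0.167 and 0.244 with the super-repressor in OCI-Ly3 and OCI-Ly10.

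The number of genes called depended more on the setting. The 150 of IL-6, 146 of the inhibitor, 144 of the siRNA, 616 and 24 of the super-repressor in OCI-Ly3 and OCI-Ly10 became 32, 77, 48, 103 and 5 when the run entered as a random block (correlation within runs 0.2687). Leaving out 1 array at a time, these counts ran from 93 to 147, 44 to 160, 21 to 106, 269 to 957 and 1 to 17. They moved by over 1.5 times without the second IL-6 array of 1 or 3 h (97 and 93), without either 3 h or the second 6 h array of the inhibitor (48, 44 and 88), and without the first 24 h or second 48 h siRNA array (21 and 53). The same held for the super-repressor without the first or second 2 h, second 4 h or first 6 h array of OCI-Ly3 (957, 277, 284 and 269) and without the 6 or 24 h array of OCI-Ly10 (5 and 1). Arrays of each experiment alone gave 71, 12, 0 and 368, with no such fit for OCI-Ly10, which has no replicates. Scaling gave 455, 232, 83, 583 and 238, and with it the split moved from 115 higher and 35 lower to 281 and 174 for IL-6, and from 10 and 14 to 124 and 114 for the super-repressor in OCI-Ly10. All time points gave 643 for the siRNA and 10 for OCI-Ly10, where the trended and robust prior gave 2. With the replicate block the counts were 314 (IL-6), 1912 (IL-10, against 1548), 260 (inhibitor), 417 (siRNA) and 1105 (OCI-Ly3), and the means of BCL3 did not move. For the inhibitor and the siRNA the deviations of same-numbered arrays correlated at 0.203 and 0.299. These are of the size seen for IL-6 (0.193 to 0.269) but rest on 1 value each. For the super-repressor in OCI-Ly3 they ran from -0.319 to 0.32. In these experiments, too, the numbers were not shown to pair the arrays. For IL-10 the 1548 genes became 1032 with the run as a block, 1031 on the IL-10 arrays alone and 1158 with scaled arrays. Without 1 array at a time its count ran from 1161 to 1569. The cause of these shifts was not tested. The base of the deposited logarithm is unstated, so every fold value rests on base 2.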
